A study of Caenorhabditis elegans with 2 samples.

Results

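Of 882 peaks in the conservative pooled list of a tbx-11 chromatin immunoprecipitation, 244 lay away from gene starts and from small RNA genes, and these distal peaks are described here. A peak was counted when its summit, the base of strongest signal, was on a nuclear chromosome, lay outside the stretch from 1000 bp upstream to 500 bp downstream of every protein-coding gene start, and had no tRNA, snoRNA, snRNA, miRNA or other small non-coding RNA gene within 100 bp. No signal value entered this choice. The same conditions hold for 71.7% of the nuclear genome, which is called the eligible genome below. The remaining peaks were 266 promoter peaks with no small RNA gene and 372 peaks at a small RNA gene.

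The chromatin came from early embryos of Caenorhabditis elegans, aged 1 hour and obtained by egg bleaching, in 2 biological replicates of a single group. The strain was OP368, in which the transgene wgIs368 carries tbx-11 fused to TY1, EGFP and 3xFLAG on a fosmid together with unc-119(+), in an unc-119(tm4063) background, so the tagged protein was present beside any native one. The labels describe the antibody as anti-GFP in one field and as tbx-11 in another, and give sonicated fragments of 200 to 800 bp. The embryos were whole, and no mock or untagged sample was analysed here, so a peak was set against the genome, its own flanks or the promoter peaks and never against another condition.

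T-box proteins are transcription factors that bind DNA through a conserved domain with a short core site related to GGTGTG. Distal sites in a compact genome include enhancers in long introns and between genes, but a peak in a repeat can also gather reads from many near-identical copies. Transfer RNA genes are read by RNA polymerase III from a pair of sites inside the transcribed stretch, the A box and the B box, and dispersed relatives and dead copies of tRNA genes often keep them.

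3 kinds of sequence that the results below turn on are shown first, on assembly ce11, which is the same sequence as WBcel235. The first kind had an A-box-like word, GCNNAGNGG, followed on the same strand by a B-box-like word, GTTCNA, and these are in capitals in the 7 strongest such peaks. The words were chosen after the peaks had been seen, so no test was made of them. D with a number is the rank of a member by signal.
D3, chrIV:2740213-2740285, + strand: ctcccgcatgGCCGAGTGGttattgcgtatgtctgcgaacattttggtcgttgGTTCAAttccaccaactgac
D5, chrII:7001626-7001697, + strand: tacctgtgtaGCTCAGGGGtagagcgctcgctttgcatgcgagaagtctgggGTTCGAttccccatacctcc
D15, chrV:1561376-1561448, + strand: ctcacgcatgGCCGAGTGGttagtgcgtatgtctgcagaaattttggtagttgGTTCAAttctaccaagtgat
D16, chrIV:8964241-8964313, + strand: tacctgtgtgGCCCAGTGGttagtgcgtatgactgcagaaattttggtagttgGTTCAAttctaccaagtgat
D23, chrV:53475-53547, + strand: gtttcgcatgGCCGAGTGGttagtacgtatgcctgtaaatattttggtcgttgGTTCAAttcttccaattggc
D27, chrV:8431421-8431493, - strand: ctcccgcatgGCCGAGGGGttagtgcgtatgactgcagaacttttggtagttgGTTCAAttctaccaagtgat
D30, chrIII:9849307-9849378, + strand: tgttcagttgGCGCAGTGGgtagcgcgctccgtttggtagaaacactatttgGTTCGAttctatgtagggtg

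The second kind was a tandem array, a short unit repeated head to tail, and alternate units are in capitals so that the period can be seen. D1, the strongest distal peak, and D9 on another chromosome carried the same 26 bp unit, and their printed stretches were 95.2% identical. D4 had a 25 bp unit, D59 another unit of 26 bp and D46 one of 11 bp.
D1, chrII:5097614-5097717, + strand: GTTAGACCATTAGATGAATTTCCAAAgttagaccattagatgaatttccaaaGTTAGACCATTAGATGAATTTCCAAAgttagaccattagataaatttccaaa
D9, chrV:5075491-5075594, + strand: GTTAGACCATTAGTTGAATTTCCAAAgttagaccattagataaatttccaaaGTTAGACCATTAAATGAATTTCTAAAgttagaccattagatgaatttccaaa
D4, chrIII:3335092-3335191, + strand: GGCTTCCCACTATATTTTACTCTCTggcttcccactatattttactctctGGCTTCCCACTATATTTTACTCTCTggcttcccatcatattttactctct
D59, chrIV:12730746-12730849, + strand: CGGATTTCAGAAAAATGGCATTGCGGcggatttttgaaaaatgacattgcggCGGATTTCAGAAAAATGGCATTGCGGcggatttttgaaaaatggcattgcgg
D46, chrX:3631675-3631762, + strand: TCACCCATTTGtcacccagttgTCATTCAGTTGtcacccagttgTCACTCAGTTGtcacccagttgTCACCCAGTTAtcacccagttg

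The last kind held the word CGCGCA, the only one of 12 motifs searched that passed the test of summits against their flanks, and it is in capitals below. The motifs were chosen with earlier results of these data known, so this test is no independent support for the word. None of the 15 strongest members held CGCGCA. D21 lies in an intron of scc-2, the loader of cohesin onto chromosomes, D28 in the first intron of the actin gene act-4, and D32 and D36 between genes. D33 and D38 belong to 1 repeat family and their printed stretches were 91.9% identical.
D21, chrII:255326-255411, + strand: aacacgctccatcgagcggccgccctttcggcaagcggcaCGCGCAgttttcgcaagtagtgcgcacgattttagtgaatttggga
D28, chrX:4961038-4961123, - strand: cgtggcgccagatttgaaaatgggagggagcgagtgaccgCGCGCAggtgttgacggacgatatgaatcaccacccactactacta
D32, chrII:10388171-10388256, - strand: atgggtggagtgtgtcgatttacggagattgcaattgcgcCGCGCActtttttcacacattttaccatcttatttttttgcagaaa
D36, chrX:11094189-11094274, - strand: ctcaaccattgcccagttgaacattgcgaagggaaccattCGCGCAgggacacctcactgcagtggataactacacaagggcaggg
D33, chrII:9102725-9102810, - strand: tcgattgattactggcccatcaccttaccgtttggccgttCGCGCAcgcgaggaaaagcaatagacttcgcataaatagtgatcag
D38, chrV:7548744-7548829, + strand: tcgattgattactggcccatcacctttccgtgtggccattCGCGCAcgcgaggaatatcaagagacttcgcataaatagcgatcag

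Distal summits were found mainly between genes and in introns, and less often than the eligible genome in coding sequence. Of the 244, 100 were intergenic, 98 in introns of protein-coding genes, 28 in coding exons, 9 in other exonic sequence of protein-coding genes, 8 in pseudogenes and 1 in another annotated gene, the long intergenic non-coding RNA gene linc-163. Each summit was counted once, in the first that applied of coding exon, other exon, intron, pseudogene, other annotated gene and intergenic. Coding exons held 11.5% of the summits (95% exact binomial interval 7.76 to 16.2) against 24.8% of the eligible genome, a ratio of 0.462 (adjusted p = 3.42e-06, exact binomial test, two-sided, Benjamini-Hochberg over 14 features). Intergenic sequence held 41.0% (34.8 to 47.4) against 29.4%, a ratio of 1.40 (adjusted p = 0.00073, same exact test). Introns held 40.2% (33.96 to 46.6) against 37.8% and did not pass the exact test (adjusted p = 0.728). The chromosome arms, taken as the first and last 25% of each chromosome, held 62.3% (55.9 to 68.4) of the summits against 52.1% (adjusted p = 0.00624, same exact test). These were 3 of 14 features called, which is 21.4%, and since the test treats each peak as independent, p-values cover counting error over peaks only. Among the 165 members whose sequence matched the genome once, none of these differences passed: coding exons held 17.0% (adjusted p = 0.0883), intergenic sequence 32.1% (adjusted p = 0.66) and chromosome arms 60% (adjusted p = 0.15) in the same exact test, although the eligible genome was not restricted in that way. The chromosome arms held 51.5% of the 66 members at or above the median signal of the list, a ratio of 0.99 to the eligible genome. In the list of replicate 2 alone the ratio of the arms was 1.09 (adjusted p = 0.664) and in that of replicate 1 alone 1.17 (adjusted p = 0.188), with 95 and 108 members, while coding exons and intergenic sequence passed the exact test in each list.

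**Figure D1:**
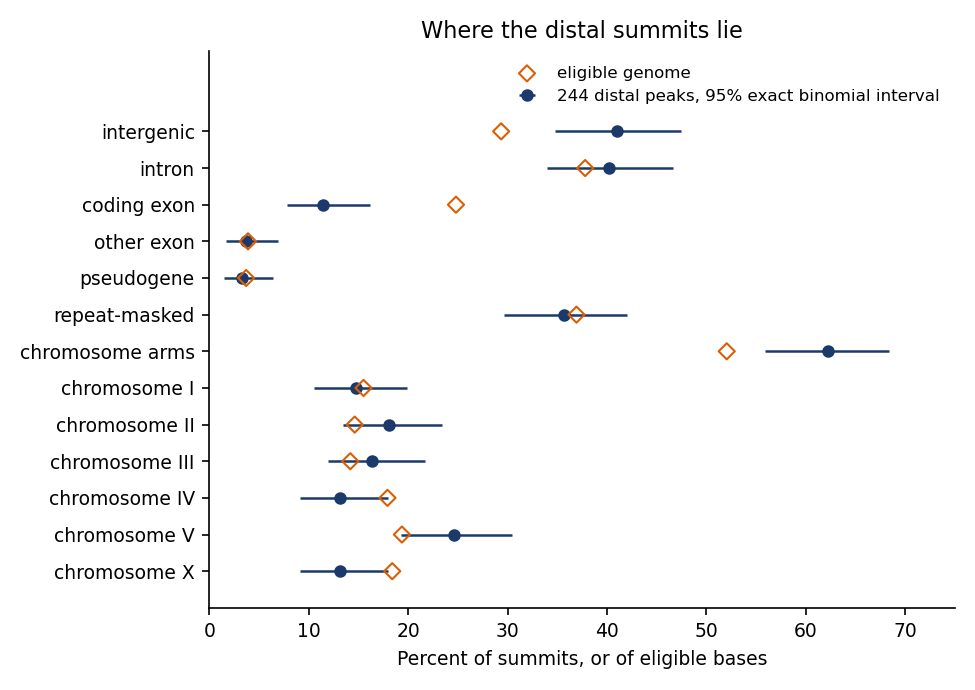
Share of the 244 distal summits in each annotation class, in repeat-masked sequence, in the chromosome arms and on each chromosome (filled points, 95% exact binomial intervals), beside the share of eligible bases (open diamonds). Coding exons lie far below their diamond at 11.5% against 24.8%, and intergenic sequence and chromosome arms lie above theirs.

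No chromosome passed the test in this list. Chromosome V held 60 summits, 24.6% against 19.4% of the eligible genome (adjusted p = 0.12, exact binomial test), and chromosome X held 32, 13.1% against 18.4% (adjusted p = 0.111, exact). In the other pooled list, with 349 members, X passed, with 12.03% of the summits and a ratio of 0.654 (adjusted p = 0.00742, same exact test). A repeat-masked base lay at 87 summits, 35.7% (29.6 to 42.02) against 36.9%, and did not pass the test (adjusted p = 1, exact). Sequence at the summits was richer in G and C than around them, with a median of 44.8% within 100 bp against 35.8% and 36.8% in windows centred 500 bp to the left and right, and 35.3% over eligible windows of the same length.

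Signal here means the strength value deposited for each peak by the authors, whose scale is unstated, so it served to rank and describe peaks within a list. Distal members had a median signal of 84.6, with quartiles of 74.4 and 107.3 and a range from 2.07 to 430.3. The whole list had a median of 103.5 and promoter peaks one of 94.8, and the strongest distal peak ranked 15 in the list. Intergenic members had a median of 90.6, intronic members 84.8, coding exon members 80.1, other exonic members 74.1 and pseudogene members 75.5, and all these classes overlapped in the middle of their range. Upwards they differed, since coding exon members reached 148, pseudogene members 115.3 and other exonic members 90.9, while intergenic members reached 430.3 and intronic members 297. The pseudogene value leaves out D5, at a tRNA pseudogene inside an intron, which was counted as intronic and had 251. Of the intergenic members, 58 of 100 were at or above the median of all distal members.

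**Figure D2:**
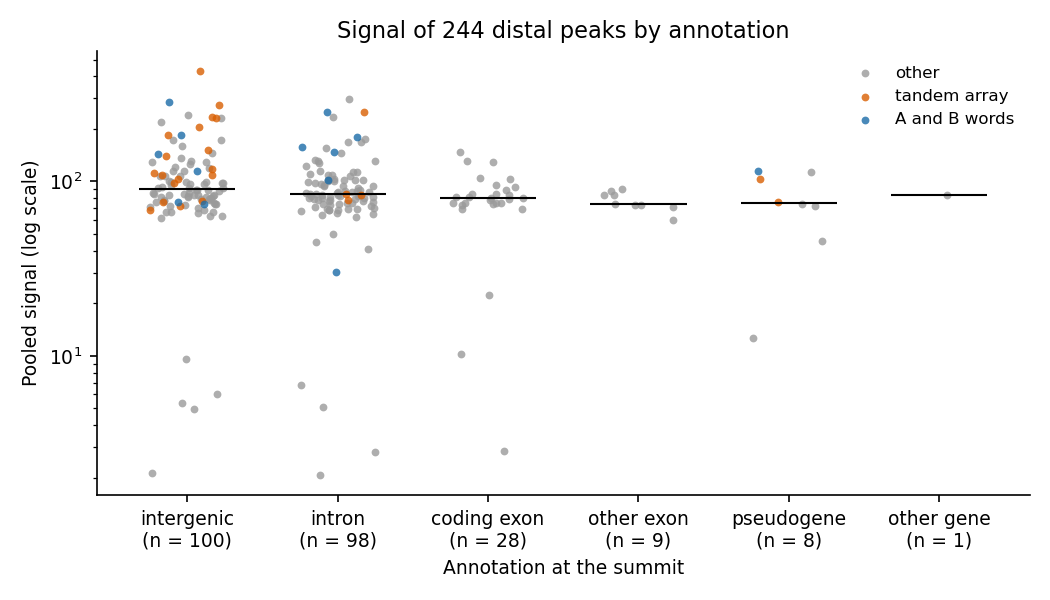
Pooled signal of each of the 244 distal peaks (log scale) by annotation at the summit, with the class median as a bar and colours for members with a tandem array or with the A-box-like and B-box-like words. The classes overlap below 90.9, the strongest peaks are intergenic or intronic, and 13 weak members lie below 30.

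The 13 members with a signal below 30 all lay beside stronger peaks. Their signals ran from 2.07 to 22.2, and a stronger summit of 67.6 to 308.0 lay 199 to 219 bp away from each. D242 in stim-1, which encodes a calcium sensor of the endoplasmic reticulum, had a signal of 2.80 beside D17 with 176, and D244 in kel-8 had 2.07 beside D159 with 78.8. In all, 22 members had a stronger summit within 1000 bp, and the number of features called was 3 with and without them.

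Distal members were absent from both replicate lists more often than promoter peaks. Of 244 distal members, 44 overlapped a peak in both replicate lists, 29 in that of replicate 1 only, 27 in that of replicate 2 only and 144 in neither. The share in both was 18.0% (13.4 to 23.4), against 39.1% over all 882 peaks of the list. Neither replicate list held 59.02% of distal members and 42.1% of promoter peaks, a difference of 16.9 percentage points (adjusted p = 0.000986, Fisher's exact test, two-sided, Benjamini-Hochberg over 7 measures). Among the 66 distal members at or above the median signal of the list, 60.6% were in both replicate lists and 6.06% in neither, and there the difference from promoter peaks was 4.16 percentage points (adjusted p = 0.31, Fisher's exact test). The pooled list derives from the same alignments as the replicate lists, so overlap is a description of how often a peak passed again and not an independent repeat.

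The replicates' longer candidate lists, from before the reproducibility threshold, held 55301 peaks in replicate 1 and 45180 in replicate 2. An overlap of 1 bp with them was found for 243 of the members in replicate 1 and 240 in replicate 2, with 239 in both. The same share over all peaks of the pooled list was not computed, so this presence is not a trait of distal members. The members' median candidate signal was 49.2 in replicate 1 and 37.9 in replicate 2, and replicate 1 was the higher for 203 of the 239. For the 13 members with a pooled signal below 30 these medians were 53.9 and 33.5, against a pooled median of 5.39. Such members could thus overlap the candidate peak of a stronger neighbour. Across these 239 peaks Spearman's rho was 0.414 and Pearson's r of log2 signal was 0.65, which describe peaks of 1 genome and 1 control and not independent samples. For the 100 intergenic members, 98 of them in both lists, rho was 0.539, and for the 27 coding exon members in both it was 0.

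**Figure D3:**
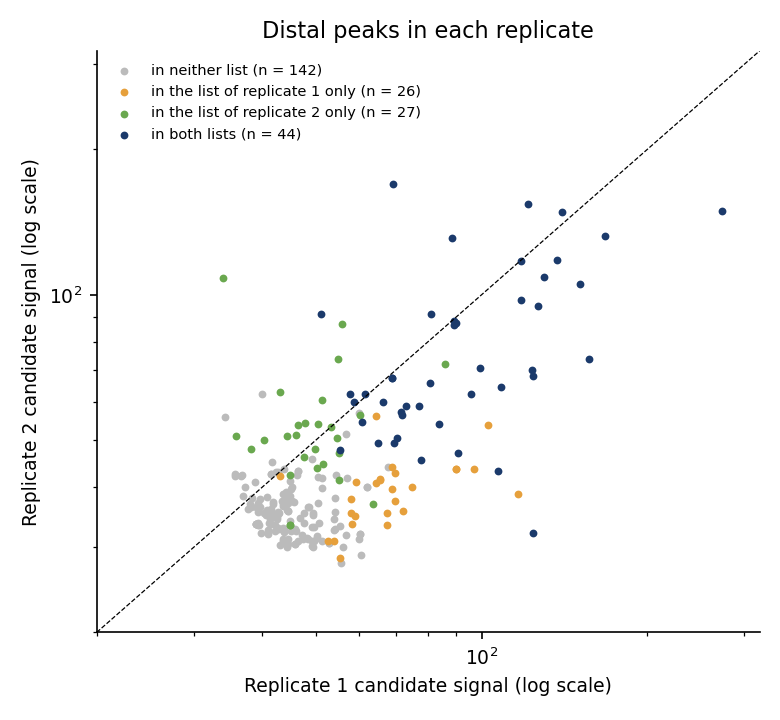
Candidate signal of 239 distal peaks in replicate 1 (horizontal) and replicate 2 (vertical), both on log scales, coloured by presence in the thresholded list of each replicate, with the line of equality dashed. Members in both lists spread to the upper right, and 203 of the 239 lie on the replicate 1 side of the line.

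The 15 strongest members were all in both replicate lists, 11 of them intergenic and 4 intronic. Of these 15, 7 had a tandem array and 3 had the A-box-like and B-box-like words. D1, at chrII:5097542-5097760 between C04G6.13 and C04G6.6, had a pooled signal of 430.3, with 273 in replicate 1 and 149 in replicate 2. D2, at chrIV:1831211-1831540 in the second intron of cmk-1, which encodes a calcium and calmodulin dependent protein kinase, had 297, with 167 and 132. Its stretch was rich in G and C at 60.7% and matched no other place in the genome outside its own locus. Within that locus it had 2 matches, and its best repeat period was 22 bp at 66.5% identity, short of the array rule below. D7, at chrIV:8375557-8375676 in a gap of 350 bp between the converging genes aagr-1 and D2096.7, had 239.6, with 129.9 and 109. D8, at chrIV:14838299-14838451 in an intron of Y57G11C.22, had 234, with 118 and 117. It held a full B-box-like match of the motif GTTCGANNC. D2, D7 and D8 thus stood among the strongest peaks that did not meet the rule for an array, although D2 held a less exact local repeat. Replicate 1 was the higher in D2, D7 and D8.

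Many of the strongest distal peaks lay in repeated sequence. When each summit with 100 bp to either side was matched to the genome at 90% identity over 80% of the length, 79 members (32.4%, 26.5 to 38.6) had at least 2 matches, 54 had at least 10 and 20 had at least 100. Promoter peaks had at least 2 matches in 9.40% (6.17 to 13.6). Median signal was 82.4 for the 165 members with 1 match, 97.4 for those with 2 or more and 100.4 for those with 10 or more. Reads from near-identical copies cannot be divided between them by these lists, and the authors' treatment of reads with several matches is not given here, so the part of copy number in these signals was not tested. None of the 28 coding exon members had a second match, which allows a share of up to 12.3% (exact binomial).

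**Figure D4:**
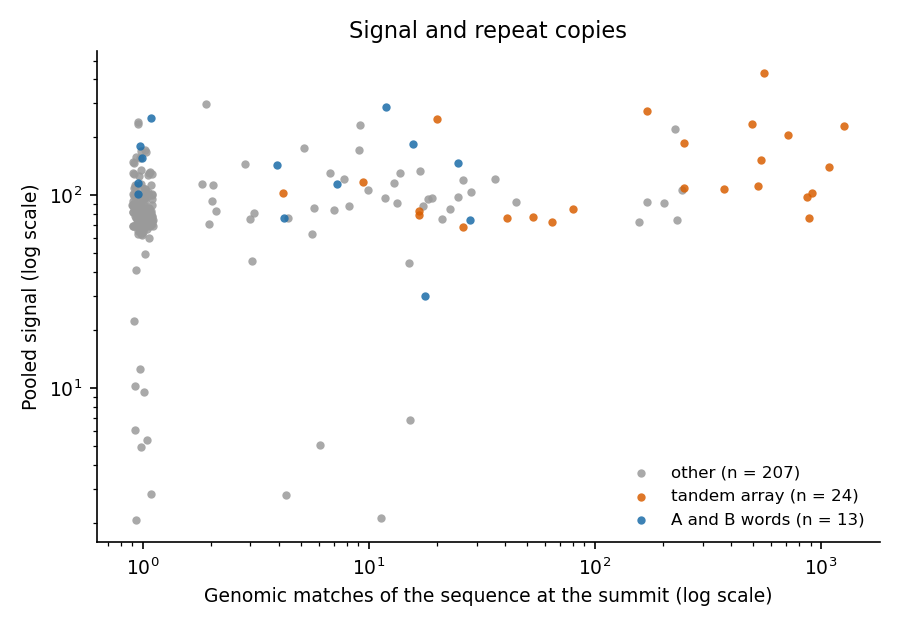
Pooled signal of the 244 distal peaks (log scale) against the number of genomic matches of the sequence at the summit (log scale, points moved slightly sideways), with tandem arrays and A and B word members coloured. Of the 20 members with 100 or more matches 14 are tandem arrays, and D1 with 514 matches is the highest point.

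A tandem array was called where the same stretch repeated with a period of 2 to 80 bp at 80% identity or more, a rule set after the strongest peaks had been seen. It held for 24 members (9.84%, 6.404 to 14.3), for 1.504% of promoter peaks and for 1.01% of eligible stretches of the same length. Of the 24, 18 were intergenic, 4 intronic and 2 in pseudogenes, and 21 had a repeat-masked summit. Their median signal was 108.4, from 68.8 to 430.3, their median period 26 bp, and their arrays ran for 81 to 2785 bp. They were in both replicate lists in 8 cases and in neither in 9, against 44 and 144 of all 244 members.

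Members sharing an array unit differed in signal and between replicates. The stretches around the D1 and D9 summits matched 7 places in the genome at 90% identity over 80% of the length. Of these places 2 had a peak in the list, and copies of the 26 bp unit alone were not searched for. D9, at chrV:5075378-5075707, had a signal of 234, with 157 in replicate 1 and 73.6 in replicate 2. The 25 bp unit of D4 was shared with D11, D13, D25 and D31, all intergenic, and this family matched 39 places, 4 of which had a peak. D4, at chrIII:3334977-3335306 in an array of 2785 bp, had 273, with 121 in replicate 1 and 154 in replicate 2. D11, at chrIII:2497818-2498147, had 229.9, with 69.0 and 169.8. D13 lay on chromosome I and had 206, with 88.4 and 131. In this family replicate 2 was the higher in D4, D11, D13 and D31 and the lower in D25, whereas over all members replicate 1 was usually the higher. A further sequence family of 5 intergenic members, D12, D14, D64, D98 and D100, of which only D14 met the rule for an array, had signals from 91.6 to 221 and matched 16 places, 6 of them with a peak. D6, in an intron of Y47H10A.4 on chromosome I, had an 11 bp unit and a signal of 249.97, with 151.1 and 105.

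The A-box-like and B-box-like words occurred together within 150 bp of 13 distal summits (5.33%, 2.87 to 8.94), against 3 of 488 flank windows, 2 of 266 promoter peaks and 0.313% of eligible stretches of the same length. By the same search 21.9% of the 612 annotated nuclear tRNA genes held the pair. The words began 42 or 43 bp apart in 11 of the 13 members, and the A word began within 25 bp of the summit in 10. The eligible genome held 971 such pairs in all, and 13 of them, 1.34%, had a summit of the list within 150 bp.

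Signals of these 13 members ran from 30.1 to 287 with a median of 143, and 8 were in both replicate lists, against 44 of all 244. D3 lay at a pseudogenic tRNA, Y94H6A.T1 in the RefSeq annotation, between Y94H6A.2 and the nuclear hormone receptor gene nhr-277. It had a signal of 287, with 139.7 in replicate 1 and 148 in replicate 2. D5 lay at a second pseudogenic tRNA, C52E12.T1, in the fifth intron of unc-104, which encodes the kinesin that carries synaptic vesicle precursors. It had a signal of 251, with 137 and 118. RefSeq lists 209 nuclear pseudogenic tRNAs, and 4 peaks of the list lay within 100 bp of one, these 2 members among them. D47, at the pseudogene T26C11.3 on X, had 115.3, with 58.6 and 59.99.

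The other pair members lay in no annotated tRNA or tRNA pseudogene. D15, at chrV:1561223-1561552 between srsx-8 and the phosphatase gene cdc-25.2, had a signal of 185, with 89.1 in replicate 1 and 88.3 in replicate 2. D16 in the last intron of tpra-1, inside the window of another annotated transcript start, had 181, with 89.8 and 87.3. D23 in an intron of srt-52, of a chemoreceptor family, had 157, with 95.6 and 62.5. D27 in an intron of lmd-3 had 147, with 107 and 43.1. D30, upstream of mrpl-36, had 143, also held the T-box core, as 1 other of the 13 did, and was higher in replicate 2, at 86.9 against 55.9. Replicate values were thus nearly equal in D15 and D16 and more than 1.5 times apart in D23, D27 and D30.

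By sequence, 72 members fell into 21 groups, joined by links between members that matched at 80% identity over 100 bp or more. Links were followed from member to member, so not all members of a group need match one another. The largest group had 15 members on all 6 chromosomes, D3, D5, D10, D15, D16, D19, D23 and D27 among them, and 8 of the 15 held the pair of words. Its signals ran from 74.1 to 287 with a median of 147, and 10 were intergenic and 5 intronic. In both replicate lists were 9 of the 15, against 44 of all 244 members. The group matched 61 places in the genome, and 15 of these, 24.6%, had a peak of the list. D10, at chrX:351550-351669 upstream of sor-3, was its strongest member without the words, with a signal of 232, 126.5 in replicate 1 and 94.9 in replicate 2. A group of 4, D33, D38, D91 and D111, matched 19 places, 5 of them with a peak, and had a G and C content of 52.7% and no repeat-masked summit.

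Of 12 motifs searched on both strands within 100 bp of the summit, 1 passed, which is 8.33%. The CGCGCA word was present in 36 members (14.8%, 10.6 to 19.8) against 3.28% in flanks centred 500 bp away, a ratio of 4.5 (adjusted p = 0.000825, exact binomial test on the members where summit and flank differ, two-sided, larger p of both flanks). It was in 2.56% of eligible stretches of the same length and in 26.3% of promoter peaks. With a window of 50 bp the ratio was 4.22 and the exact test was not passed (adjusted p = 0.127), nor was it among members with 1 genomic match, with a ratio of 3.38 (adjusted p = 0.0546, exact). Without replicate 2 it was 6.4 and not passed either (adjusted p = 0.0905, exact). Median G and C content of the 36 was 50% against 44.8% over all members, and the part of base composition was not tested. Because the 12 motifs were chosen with earlier results of these data known, their p-values are not independent support.

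CGCGCA members were 20 intronic, 13 intergenic and 1 in a coding exon, with a further 2 elsewhere, and had a median signal of 85.3. D16 was the strongest. It was 1 of 6 of the 36 in the window of another annotated transcript start of a protein-coding gene, against 26 of all 244 members. D21, at chrII:255309-255404 in the first intron of scc-2, had a signal of 168, with 89.1 in replicate 1 and 86.6 in replicate 2. D28, at chrX:4960996-4961325 in act-4 and 540 bp downstream of a gene start, had 146, with 96.8 and 43.7, and passed in replicate 1 only. So D21 was even between replicates and D28 was not. The T-box core GGTGTG was in 23 members (9.43%, 6.07 to 13.8) against 5.74% in flanks and 4.42% of eligible stretches, and did not pass (ratio 1.64, adjusted p = 0.432, exact). It was in 7.89% of promoter peaks. Of its 23 members 19 were in neither replicate list and 1 in both, and their median signal was 78.7. Over all 244 members 144 were in neither list and 44 in both, with a median of 84.6, and no test was made of this. The E2F site GCGCGAA, which can overlap CGCGCA on the complementary strand, was in 5.33% against 1.02% in flanks and did not pass either (adjusted p = 0.211, exact).

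**Figure D5:**
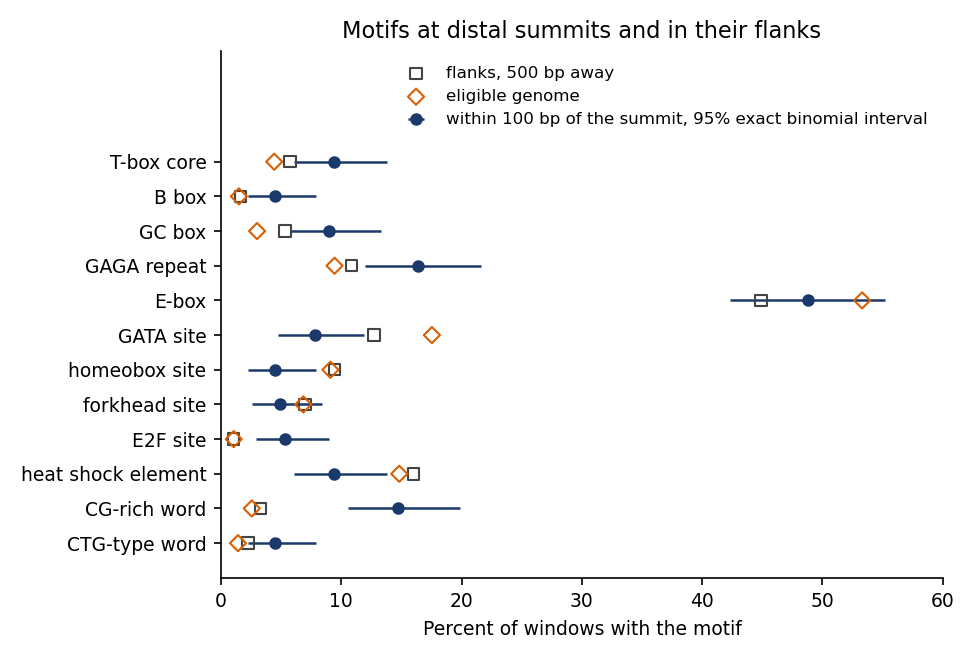
Percent of distal summits with each of 12 motifs within 100 bp (filled points, 95% exact binomial intervals), in flanks 500 bp away (squares) and over the eligible genome (diamonds); the CG-rich word is CGCGCA and the CTG-type word is CTGCGTC. The CG-rich word stands at 14.8% against 3.28% in flanks, and the T-box core at 9.43% against 5.74%.

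Distal members differed from promoter peaks with no small RNA gene in 4 of 7 measures, which is 57.1%. A signal at or above the list median was found in 27.05% of distal members and 39.5% of promoter peaks (adjusted p = 0.00624, Fisher's exact test, two-sided). A repeat-masked summit was found in 35.7% and 21.8% (adjusted p = 0.00172) and a summit in the chromosome arms in 62.3% and 47.4% (adjusted p = 0.00172, same exact test). The fourth was absence from both replicate lists, given above. The repeat-masked and arm shares of bases inside the promoter windows were not computed. The differences in repeat-masked summits and in arms therefore cannot be told apart from differences between the bases open to each class. Presence in both lists (18.0% and 24.8%, adjusted p = 0.0945), location on X (13.1% and 9.77%, adjusted p = 0.309) and the T-box core (adjusted p = 0.636) did not pass the exact test. Presence in both lists passed in the other pooled list, at -9.43 percentage points (adjusted p = 0.00225, same exact test), and among peaks matching the genome once, at -12.8 points (adjusted p = 0.00338, exact). Location on X passed among peaks at or above the median signal, at 13.4 points (adjusted p = 0.0216, exact). With only peaks of both classes that match the genome once, the repeat-masked difference was 3.08 percentage points and was not passed (adjusted p = 0.47, exact). The arm difference then was 11.0 points (adjusted p = 0.0584, exact). The signal difference of -12.4 points was -9.39 without replicate 1 (adjusted p = 0.273), -10.3 without replicate 2 (adjusted p = 0.121) and -8.76 with the wider promoter window (adjusted p = 0.0781), none of which passed the exact test. The arm difference of 14.9 points was 5.36 without replicate 1 (adjusted p = 0.476) and 5.80 among peaks at or above the median signal (adjusted p = 0.636), which did not pass the exact test either.

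Intronic members sat in long introns, with a median host intron of 2106 bp against 68 bp over all 109516 annotated introns. A longer intron offers more eligible bases, and no test was made of this difference. Of the 98, 20 were in the first intron. The strongest after those described above were D17 in the fourth intron of stim-1, at chrIII:415354-415683 with a signal of 176, 124 in replicate 1 and 67.99 in replicate 2, and D20 in mdt-26, which encodes a Mediator subunit, with 169, 81.1 and 91.1. D24 in the last intron of let-268, a procollagen lysyl hydroxylase gene, had 156, with 116.5 and 38.7, and was in the list of replicate 1 only. D17 and D20 were in both lists.

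Intergenic members lay in gaps with a median of 6260 bp. Of the 100, 24 were between convergent genes, 22 between divergent genes and 54 between genes on one strand, against 15.3%, 31.2% and 53.5% of eligible intergenic sequence. No test was made of these shares. Over all members, the nearest protein-coding start was a median of 2732 bp away and the farthest lay 26014 bp away. Another annotated transcript start of a protein-coding gene had 26 members in its window, a pseudogene start 16 and a start of another annotated gene 32, so a distal summit could still be near a start of another kind.

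Coding exon members had a median signal of 80.1 against 84.6 over all members. Of the 28, 22 were in neither replicate list, 78.6% (59.05 to 91.7) against 59.02% of all 244 members. No test was made of these differences. The 3 strongest coding exon members were in both lists. D26, at chrX:5429361-5429690 in pks-1, which encodes a polyketide synthase, had a signal of 148, with 76.9 in replicate 1 and 58.8 in replicate 2. D34 in K08D9.2 had 132, with 90.6 and 47.0, and D40 in Y43F8B.2 had 129, with 61.4 and 62.2. D65 in ccar-1 followed with 104, and D68 in str-16, of a chemoreceptor family, came next. Members in other exonic sequence were in tos-1 (90.9 and 83.3), in ntl-9, a subunit of the CCR4-NOT deadenylase, (88.0), in ekl-1 (83.7), in the phosphatase gene vhp-1 (74.1) and at 4 further summits, and none was in both replicate lists.

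The 8 members counted in the pseudogene class were at 7 pseudogenes, and 2 were in both replicate lists. These 2 were D47, described above, and D52 at K08D9.5 with a signal of 113, 64.9 in replicate 1 and 49.4 in replicate 2. D5, described above, was also at an annotated pseudogene and in both lists but was counted as intronic. D69 at F56H9.7 had 102.9 and was in replicate 1 only. D170 at LLC1.121 had 76.6, D183 at the chemoreceptor pseudogene srx-25 had 74.4, D228 at T10B5.2 had 45.8, and D196 and D233, both at srz-33, had 72.6 and 12.6, all absent from both replicate lists. D135 at linc-163 had 83.3 and was in neither.

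Distal peaks lay inside 122 of 19973 protein-coding genes, 0.611%, and 12 genes held at least 2. The kelch gene kel-8 held 4, with signals up to 94.0, and ketn-1, which encodes a giant muscle protein related to titin, held 3, up to 102. Hosts of 2 summits were str-16, mdt-26, the protein phosphatase 4 regulatory gene ppfr-1, stim-1, tos-1, T24H10.5, srw-100, the kinase gene tlk-1, natc-2 and C24B9.3, in several of which a weak summit lay beside a strong one. Members stood in 6 clusters of at least 3, each member within 10 kb of the next. The largest cluster ran over 20164 bp at chrV:2669319-2689482 around kel-8 and held 6. Another ran over 15127 bp at chrV:3224728-3239854 through K08D9.5, K08D9.2, K08D9.6 and str-16 and held 5, with signals from 88.8 to 132. Weak summits beside stronger ones were counted too. The lowest signal was 2.07 in the cluster around kel-8, 2.13 in a cluster of 4 on chromosome I and 2.83 in that at natc-2.

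Over all protein-coding genes 0.611% held a distal peak, so that for most of the gene lists looked at, a count of 0 lies near the background and is not a result about the list. None of 21 T-box genes, 63 homeobox genes, 269 nuclear hormone receptor genes, 50 histone genes, 78 ribosomal protein genes, 388 F-box and MATH genes, 237 C-type lectin genes, 62 potassium channel genes, 21 further channel genes and 34 early lineage regulators held one. Of 156 collagen genes 2 did, col-20 (84.5) and col-140 (75.5), and of 1354 chemoreceptor genes 3, srt-52, srw-100 and str-16. Of 28 body wall muscle genes 2 did, act-4 and the cofilin gene unc-60 (77.6), and of 26 adhesion and basement membrane genes 3, the cadherin gene hmr-1 (107.3), the Eph receptor gene vab-1 (95.8) and the receptor phosphatase gene ptp-3 (69.0). These values are pooled signals, gene length differs between lists, and no test was made.

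Values just inside and outside the limits of the definition show how members and non-members adjoined. Upstream of a start, the 3 nearest members lay 1015, 1030 and 1033 bp away with signals of 63.2, 98.8 and 79.3, and the 3 nearest excluded peaks at 982, 967 and 951 bp had 91.2, 304 and 57.6. Downstream, members at 540, 584 and 628 bp had 146, 83.4 and 75.5, and excluded peaks at 454, 450 and 436 bp had 134, 78.8 and 79.1. The nearest members to a small RNA gene, 105 to 149 bp away, had 89.6, 80.9 and 82.3, and excluded peaks at 98, 93 and 91 bp had 8.80, 6.81 and 324. Signals on the inner and outer sides overlapped at each limit.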

How the data were processed

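Each replicate's list was made from that replicate's alignments and each pooled list from the 2 together, with shared control alignments, on assembly ce11, per the file headers deposited with them. The deposited signal of a peak is the caller's strength value, and the deposited score, at most 1000 and at least 830 here, scales its irreproducible discovery rate. The aligner, the caller, their versions and the handling of reads with several matches are not given in the sources used here. No list carries read counts, so depth is unknown and intervals cover counting error over peaks only.

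Genes came from Ensembl release 115 and sequence, repeat masking and pseudogenic tRNAs from RefSeq, both on the same build. Overlap required 1 bp. Shares carry Clopper-Pearson 95% intervals. Exact binomial and Fisher's exact tests (scipy 1.17.1) were tested on simulated data. Genomic matches used blastn 2.17.0+ with an e-value of 1e-05, on Python 3.11.15. A place in the genome joined matches within 1000 bp. Alternatives were the other pooled list, the stronger peaks, each replicate list, other windows, overlaps, motif settings and match limits; those without multi-copy members or members beside a stronger summit were chosen after seeing the data. Members, motifs and gene lists were chosen with earlier results of these data known. Named members are the 15 strongest, the strongest of each class, hosts with 2 or more summits, pseudogene members, the strongest with a motif that passed or in a gene list, and those nearest each limit; others (pair, array, group, cluster and weak members) were chosen after their values were seen.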

Additional observations from a re-analysis of the deposited data

How the results depend on the processing

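No paired analysis was possible because the samples form a single group. With each replicate's own list in place of the pooled one (leaving out the other), members numbered 95 to 108, called features 2, called motifs 0 to 1, called differences from promoter peaks 1 to 2, and the share with 2 or more genomic matches was 34.3% to 38.9%. In the other pooled list 5 features, chromosome X among them, and 2 motifs were called, 24.4% of members had 2 or more matches and 12.3% were in both replicate lists. Among peaks at or above the median signal there were 66 members, 54.5% with 2 or more matches, 60.6% in both replicate lists, and 2 called differences from promoter peaks. A motif window of 50 bp left 0 motifs called, and the looser match limit put 51.6% of members at 2 or more matches. Members matching the genome once gave 1 called feature, which was repeat-masked sequence (ratio 0.656), 0 called motifs and 12.1% in both replicate lists. That filter itself removed masked summits, which were 47 of the 79 members left out. The eligible genome was not filtered in the same way, so this call cannot be told apart from the filter. CGCGCA had an unadjusted p of 6.88e-05 in the full set.

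Several results that had not been called in the full set turned direction in other settings, and some of them gained a call elsewhere. The T-box core differed from promoter peaks by -5.54, -3.59, -2.19 and -1.38 percentage points (stronger peaks, without replicate 1, without replicate 2, wider promoter window), and its ratio to flanks was 0.8 among stronger peaks. The X difference was -0.303 points in the other list but 13.4, and called, among stronger peaks. Presence in both replicates was 1.56 points among stronger peaks, but -9.43 in the other list and -12.8 among peaks matching once, both called. The intron ratio was 0.919 to 0.98 with single replicates and 0.971 with the wider promoter window. The repeat-masked ratio was 1.05, 1.04 and 1.00 (without replicate 1, wider promoter window, transcript starts). The chromosome-arm ratio, called in the full set, was 0.99 among stronger peaks. The cause of these changes was not tested. Of 190 recomputed values 134 were classed as unchanged. For a tested value this meant the same direction and side of the threshold. For a count it meant a change of at most a factor of 1.5, and for a share a value inside the interval of the full set. With depth unknown, absence from a list is not absence of signal.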
